A study of Mus musculus with 2 samples.

Results

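The transcription factors examined here are those that build and maintain the B cell lineage, set beside the Oct proteins that act with them: Pou2f2, Pou2f1, Pou2af1, Pax5, Ebf1, Spib, Ikzf1, Ikzf3, Tcf3 and Bach2. Their members are all probe sets that the platform's annotation assigns to one of these 10 names, where a probe set is the group of short array sequences that together measure 1 transcript. The table gave 23 probe sets for 9 of the genes, of 34945 probe sets that carry 1 gene symbol and 18193 named genes in all. No probe set was listed for Pou2f1, the widely expressed relative of Pou2f2, so it was not analysed here. The group was proposed with values of these arrays known, Pou2f2 above all, so its differences are given as a description.

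Both samples were B cells that bore B220 but neither Thy1 nor CD11c, and they came from the NOD strain, which develops autoimmune diabetes, at 8 wk of age. The AIRE transgenic mice carried human AIRE, the regulator through which the thymus displays genes of other tissues, driven by an MHC class II promoter, which is active in antigen-presenting cells at large and not in B cells alone. The non-transgenic mice were NOD as well. Each group was 1 Affymetrix array of RNA from 2 mice, so no difference has a replicate check, no test was possible, and every ratio describes these 2 arrays.

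Tcf3, Ebf1 and Pax5 act in sequence to commit a lymphoid progenitor to the B lineage, and the Ikaros proteins Ikzf1 and Ikzf3 act beside them from the progenitor to the mature cell. Pou2f2 (Oct-2) and its relative Pou2f1 (Oct-1) bind the octamer, a short element of immunoglobulin and other B cell promoters, and Pou2af1 (OBF-1, also called Bob1) is the coactivator that joins them there. Spib and Bach2 serve mature B cells, Spib in antigen receptor signalling and Bach2 in holding back the plasma cell programme.

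Values are signal intensities as deposited, which had the same trimmed mean, 500.0, on both arrays, and ratios are log2 of transgenic over non-transgenic, with intensities under a floor of 25 raised to it. A probe set was kept if its higher intensity reached 98.8, the median over both arrays, and the probe set of highest mean intensity stood for its gene. Probe sets differ in how strongly they bind, so intensities are compared between arrays and not as amounts of different transcripts. Where 2 intensities are set against each other, the transgenic one comes first. All 23 member probe sets passed this filter, 20 of them on both arrays. Endogenous Aire was at 84.5 in transgenic and 91.7 in non-transgenic cells, under the filter on both. Its probe set was made for the mouse transcript and does not check the labels. For the beta-actin controls the signal near the 3' end over that near the 5' end, a sign of RNA integrity, was 1.49 in transgenic and 1.25 in non-transgenic cells.

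All 23 member probe sets had a lower intensity on the transgenic array, against 52.1% of the 19976 named probe sets above the filter. Under the other 3 scalings tried, 21 or 22 of the 23 were lower, and those that turned were Pou2af1 and, after median alignment, 1 probe set of Ebf1. The share of named probe sets lower was then 38.7% after median alignment, 48.4% after quantile normalization and 50.6% after loess. As deposited, the log2 ratios of the 23 ran from -2.73 to -0.06 with a median of -0.65, beside -0.03 over the 19976 named probe sets. At least 2-fold lower were 6 of the 23, where the background was 6.08%, and 0 were at least 2-fold higher, where it was 2.76%. Pou2f2 supplied 3 of the 6, and Pax5, Ebf1 and Tcf3 supplied 1 each. The 2-fold limit fell in a gap between Ebf1 1457441_at, just past it at -1.27, and Ikzf1 1421303_at, just within it at -0.89. Because the group was chosen with these values in view, nothing is read from the counts.

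**Figure D1:**
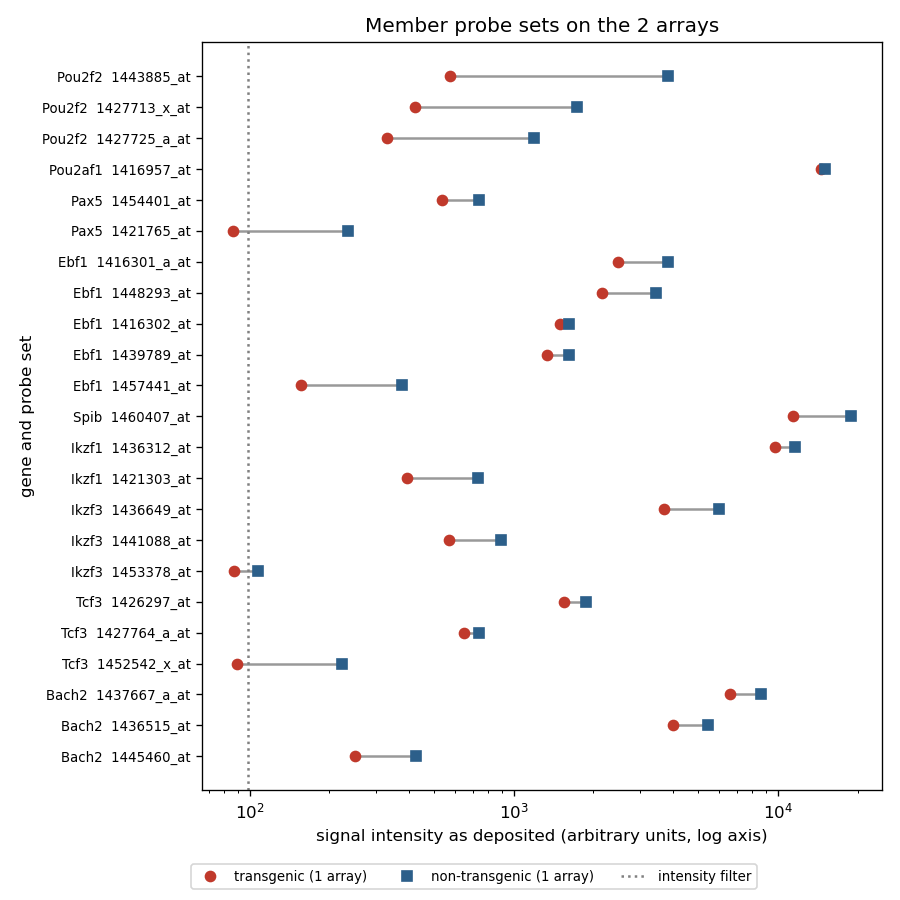
Signal intensity as deposited (log axis, arbitrary units) of each member probe set on the transgenic array (circles) and the non-transgenic array (squares), with a dotted line at the filter of 98.8. Every circle lies to the left of its square, with the widest gaps in Pou2f2 and almost none in Pou2af1.

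Pou2f2 had the largest difference of the members. Its brightest probe set, 1443885_at, stood at 574.9 in transgenic and 3819.6 in non-transgenic cells, 6.64-fold lower (log2 ratio -2.73). The probe set 1427713_x_at was at 420.8 against 1734.8, a log2 ratio of -2.04, and its name marks sequence that other transcripts may share. The last, 1427725_a_at, read several transcripts of the gene and was at 329.8 against 1191.8, a log2 ratio of -1.85. All 3 were therefore more than 2-fold lower and the non-transgenic array was the higher one in each. Between these 3 probe sets the log2 ratio differed by 0.88, so the size of the fold depended on the probe set read.

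By the brightest probe set of each gene, Pou2f2 had the lowest ratio of the 9724 genes that lay above the filter on both arrays. It held this place under all 4 scalings of the arrays tried, but the place depended on the probe set read. The mean over its probe sets was -2.21 and its probe set of median ratio was at -2.04. Both were above the ratios of the 5 nearest genes given below, and ranks under those rules were not computed. Among all 10810 named genes above the filter Pou2f2 ranked 11 from the lowest by its brightest probe set. The genes before it were all under the filter on the transgenic array. Its place is a description, since Pou2f2 was chosen from these values. The 5 genes above the filter on both arrays with the ratio closest to its own were named by their distance from it on the log2 scale over the 2 arrays. Septin1, a filament-forming GTPase, was nearest at 228.2 against 1343.8 (log2 ratio -2.56, a distance of 0.17). Apbb1ip, an adaptor of integrin activation, followed at 227.0 against 1195.1 (-2.40). The others were Afmid, an enzyme of tryptophan breakdown (-2.32), Zbtb7b, the zinc finger factor of helper T cell fate (-2.31), and Gpr132, a G protein-coupled receptor (-2.30).

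The coactivator Pou2af1 was read by 1 probe set, 1416957_at, at 14502.7 in transgenic and 15105.0 in non-transgenic cells. The values were close together, with a log2 ratio of -0.06, and the sign turned under each of the other 3 scalings (0.11 after median alignment, 0.05 after quantile normalization and 0.05 after loess). As deposited it was the member nearest to equality between the arrays, although Ikzf1 was nearer after median alignment (-0.10), and 43.8% of named genes above the filter had a lower ratio. The log2 ratio of Pou2f2 minus that of Pou2af1 was -2.67, and the 7 other member genes with values lay between them. The difference between Pou2f2 and Pou2af1 stayed between -2.82 and -1.98 under 10 other settings, but most of these could not move it. Median alignment, the other floor, the other filters and leaving out _s_at and _x_at probe sets all left it at -2.67. Quantile normalization gave -2.78 and loess -2.82. The mean of the probe sets gave -2.15 and the probe set of median ratio -1.98. The Oct protein and its coactivator thus differed in ratio on these arrays, with no replicate to give that difference an error.

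The promoters of Pou2f2, Pou2af1 and Spib are shown because the first 2 genes set the ends of the range and Spib is described as a gene that Pou2af1 helps to activate. Each is the 250 bases before the gene's start in RefSeq, build GRCm38.p6, read 5' to 3' on the gene's strand. Capitals mark the letters TGCAAAT, the octamer without its first base.
Pou2f2, chr7:25132461-25132710, minus strand: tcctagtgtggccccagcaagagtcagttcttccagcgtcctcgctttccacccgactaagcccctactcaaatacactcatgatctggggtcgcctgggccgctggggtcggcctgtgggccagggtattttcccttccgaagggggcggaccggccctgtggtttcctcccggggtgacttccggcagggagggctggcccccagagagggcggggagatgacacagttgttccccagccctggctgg
Pou2af1, chr9:51213440-51213689, plus strand: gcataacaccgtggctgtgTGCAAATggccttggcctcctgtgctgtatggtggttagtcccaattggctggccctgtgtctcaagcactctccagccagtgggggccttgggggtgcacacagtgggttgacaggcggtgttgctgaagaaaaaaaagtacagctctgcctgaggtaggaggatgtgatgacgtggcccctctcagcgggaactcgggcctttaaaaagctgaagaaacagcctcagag
Spib, chr7:44532072-44532321, minus strand: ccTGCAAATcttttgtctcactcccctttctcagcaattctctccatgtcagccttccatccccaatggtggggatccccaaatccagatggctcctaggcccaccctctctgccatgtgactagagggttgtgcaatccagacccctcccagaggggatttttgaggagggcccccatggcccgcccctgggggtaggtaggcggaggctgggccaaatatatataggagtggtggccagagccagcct

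The full octamer ATGCAAAT, searched on both strands, was in 0 of the 13 RefSeq promoters of the 10 genes and in 1.6% of all 32851 promoters of the same length. The shorter TGCAAAT, which the full octamer contains and which was added after the sequences were seen, was in the promoters of Pou2af1 and Spib and in 3.56% of all promoters. In Pou2af1 it began at position -231, counted back from the gene's start, and in Spib it began at -248. The letters CAGGTG, an E-box that Tcf3 can bind, were in 0 of the 13 and in 17.2% of all promoters, and a site of Ebf1, TCCC and GGGA with 2 bases between them, was in 0 and in 0.779%. GAGGAAGT, a site of Ets factors such as Spib, was in 0 of the 13 and in 2.44% of all promoters. TGGGAA, a site of Ikaros proteins, was in 2, 1 each of Ebf1 and Pou2f1, and in 21.6% of all promoters. These are matches of letters in a short window and do not show binding.

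The commitment factors were lower by smaller amounts. Tcf3, an E protein that starts the B cell programme, had its brightest probe set 1426297_at at 1551.5 in transgenic and 1878.9 in non-transgenic cells (-0.28). The Tcf3 probe set 1427764_a_at was at 648.2 against 739.0 (-0.19), and 1452542_x_at, which was dim and under the filter on the transgenic array, was at 89.7 against 224.1 (-1.32). The probe sets of Tcf3 thus agreed in direction and disagreed in size.

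Ebf1, the factor that opens the chromatin of B cell genes, was read by 5 probe sets. Its brightest, 1416301_a_at, was at 2490.0 against 3831.8 (-0.62), and 1448293_at was at 2148.4 against 3451.1 (-0.68). The others were 1439789_at at 1334.7 against 1615.1 (-0.28), 1416302_at at 1494.8 against 1618.1 (-0.11) and the dim 1457441_at at 156.5 against 377.5 (-1.27). All 5 were lower as deposited, and 1416302_at turned to 0.05 after median alignment. Pax5, which fixes B cell identity, was at 534.1 against 741.3 by its brighter probe set 1454401_at (-0.47). Its other probe set, 1421765_at, was at 86.6 against 235.7 (-1.44), under the filter on the transgenic array. Both were higher on the non-transgenic array, and they differed in log2 ratio by 0.97.

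The Ikaros proteins differed in size between the relatives. Ikzf1 (Ikaros), a zinc finger regulator of all lymphoid cells, was at 9703.5 in transgenic and 11623.2 in non-transgenic cells by 1436312_at (-0.26) and at 393.0 against 729.2 by 1421303_at (-0.89). Ikzf3 (Aiolos), which acts mainly in later B cells, was at 3709.4 against 5982.0 by 1436649_at (-0.69) and at 566.8 against 891.9 by 1441088_at (-0.65). Its dimmest probe set, 1453378_at, was near the filter at 87.0 against 107.2 (-0.30). The brightest probe sets put Ikzf3 at a lower ratio than Ikzf1, but the dimmest put it at a higher one.

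Of the factors of mature B cells, Spib, an Ets factor related to PU.1, was at 11396.0 in transgenic and 18914.5 in non-transgenic cells (-0.73). After Pou2f2 this was the lowest ratio of a member gene by its brightest probe set as deposited and after median alignment, while Ikzf3 and Ebf1 were lower than Spib after quantile normalization and loess. As deposited, 9.48% of named genes above the filter had a lower one. Bach2 was at 6577.9 against 8616.1 by 1437667_a_at (-0.39), at 4018.4 against 5444.2 by 1436515_at (-0.44) and at 251.3 against 425.2 by 1445460_at (-0.76). All 3 probe sets of Bach2 were lower on the transgenic array and none was 2-fold apart.

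By the brightest probe set of each, 9 of 9 member genes were lower as deposited, against 48.8% of named genes above the filter. Under each of the other 3 scalings 8 of 9 were lower, and the share over all genes was not computed there. As deposited 1, Pou2f2, was at least 2-fold lower, against 4.95%. None was at least 2-fold higher, against 2.74%. Their median log2 ratio was -0.47, beside 0.01 over the 10810 named genes above the filter. Without Pou2f2, a choice added after its values were seen, 3 of 20 probe sets were at least 2-fold lower, against 6.08% of named probe sets. The median of the 20 was -0.55. Of the 3, those of Pax5 and Tcf3 passed the filter on the non-transgenic array alone, so nothing is read from the count. In 5 of the 7 genes with several probe sets the dimmest probe set had a lower ratio than the brightest, the exceptions being Pou2f2 and Ikzf3. The 2-fold members outside Pou2f2 were all dim probe sets, with no intensity above 377.5 on either array.

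The ratios over the whole array also moved with intensity. Among named probe sets with a mean intensity of 10000 and over, 69.0% of 355 were lower, with a median of -0.23, and the 3 members there (Pou2af1, Spib and the brightest of Ikzf1) had a median of -0.26. None of the 3 was at least 2-fold lower, against 1.69% of that class. Between 1000 and 10000, 42.5% of 6184 were lower with a median of 0.07, while 10 of 10 members were lower with a median of -0.53. In that class 2.12% were at least 2-fold lower, and 2 members, both of Pou2f2, were among them. Under 1000, 56.0% of 13437 were lower and 8.02% at least 2-fold lower, with a median of -0.09. The 10 members under 1000 had a median of -0.83, and 4 were at least 2-fold lower. Of these 10, 1 each of Pax5, Tcf3 and Ikzf3 passed the filter on the non-transgenic array alone, so nothing is read from their median.

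**Figure D2:**
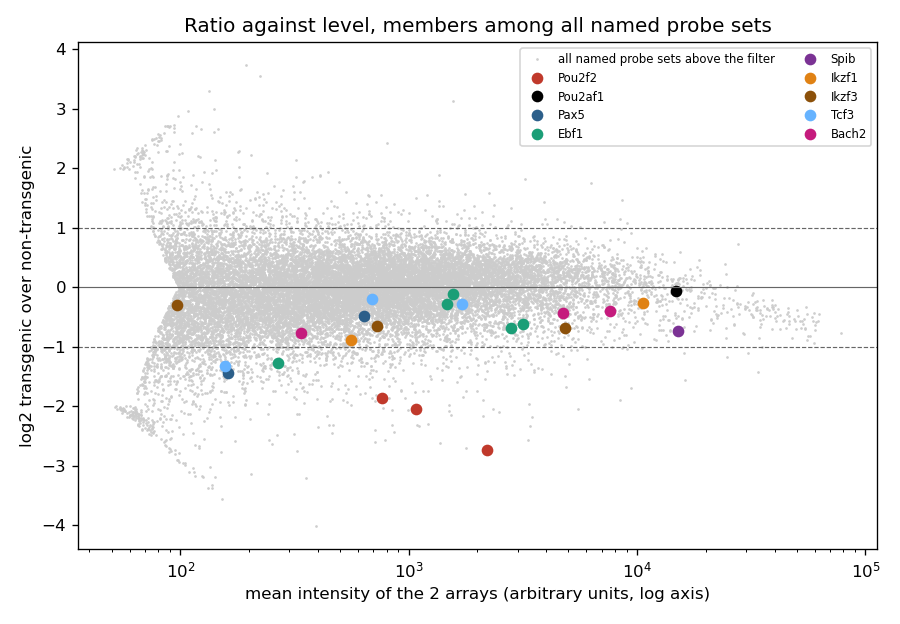
Log2 ratio of transgenic over non-transgenic against the mean intensity of the 2 arrays (log axis) for all 19976 named probe sets above the filter (grey) and the 23 members (coloured by gene), with dashed lines at 2-fold. The 3 Pou2f2 points lie between -2.73 and -1.85, below the rest of the group, and Pou2af1 lies at -0.06.

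The relatives of the members gave no common direction, and 48.8% of all named genes above the filter were lower. Of 4 E proteins and Id proteins above the filter, the partners and inhibitors of Tcf3, 3 were higher and 1 was lower, with a median of 0.29 (0.46 after median alignment). The E proteins Tcf4, at 5181.7 against 4724.9 (0.13), and Tcf12, at 4222.0 against 3081.7 (0.45), were the brightest. Of the 6 probe sets of Tcf4, 3 were lower, down to -1.33, and the highest was at 0.16. Of the 11 Ets and Bach relatives, 6 were lower (4 after median alignment), and their median of -0.09 turned to 0.07 after median alignment. Elf4, an Ets factor of lymphocyte quiescence, was the only one of them at least 2-fold apart as deposited, at 282.7 against 650.5 (-1.20), and a second probe set gave -1.31. Bach1, the relative of Bach2, was picked out with its values known. Its brighter probe set was at 1762.9 against 910.1 (0.95) and passed 2-fold after median alignment (1.12), but its other probe set was near equality at 0.02. Of the Ikaros relatives, Ikzf2 was at 194.0 against 128.4 (0.60) and Ikzf5 at 1548.0 against 1575.0 (-0.02, turning to 0.14 after median alignment).

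Other POU factors were mostly dim, with 2 of 9 on the array above the filter. Pou2f3, the epithelial relative of Pou2f2, was at 47.1 against 105.1 (-1.16), which was within 2-fold under the other 3 scalings. Of the Pax and Ebf relatives, 1 of 10 lay above the filter, Pax3, at 56.0 against 135.9 (-1.28), with another of its probe sets at 0.86. Both genes exceeded the filter on the non-transgenic array alone.

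Among 18 other transcription factors of B cells, 14 were lower, against 48.8% of named genes above the filter, and 4 were higher. Their median was -0.38 (-0.22 after median alignment). By the brightest probe set of each, Myb, a factor of progenitor cells, was the only one at least 2-fold apart as deposited. It was at 1808.8 in transgenic and 822.9 in non-transgenic cells (1.14), and all 3 of its probe sets were higher. On the same basis, 0 of the 18 were at least 2-fold lower, where the background was 4.95%. Without regard to the filter, other probe sets were past 2-fold lower in Zbtb7a (-1.90, with another at 0.43), Foxp1 (-1.45), Bcl11a (-1.11) and Irf4 (-1.02). Picked out with its values known, Mef2c, a factor of B cell proliferation, was at 3460.3 against 6847.6 (-0.98), and it passed 2-fold after quantile normalization and after loess (-1.01 in both).

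Genes described as targets of the members were listed by factor. Of 5 genes described as depending on Pou2f2 or Pou2af1, 4 were lower, against 48.8% of named genes above the filter. At least 2-fold lower were 2, against 4.95%, and the median of the 5 was -0.55 (-0.33 after quantile normalization). Crisp3, a secreted cysteine-rich protein, was at 154.3 against 433.2 (-1.49). Il5ra, the interleukin-5 receptor chain, was at 150.6 against 329.4 (-1.13, or -0.97 after median alignment). The Oct-2 target Cd36, a scavenger receptor, was picked out with its values known. By its brightest probe set it was at 2320.0 against 1963.8 (0.24), on the other side of equality. Of its 3 probe sets 1 was lower, at -0.16, and the highest was at 0.44.

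Of 10 genes activated by Pax5, 9 were lower, against 48.8% of named genes, and 2 were at least 2-fold lower, against 4.95%, with a median of -0.62. The 2 were Fcer2a, the IgE receptor CD23, at 4463.0 against 14414.2 (-1.69), and Cd79a, a chain of the antigen receptor, at 18477.6 against 49431.5 (-1.42). Cd79a, Blnk and Irf8 were over 10000 on both arrays, a class in which 69.0% of named probe sets were lower. Mycn, 1 of the 9, passed the filter on the non-transgenic array alone, and its probe sets ran from -1.42 to 2.41. Cd55, a complement regulator picked out with its values known, was just within 2-fold at -0.98 and just past it after loess (-1.02) and quantile normalization. Of 8 genes that Pax5 represses, 5 were higher and 3 lower, where 48.8% of named genes were lower. After median alignment 1 was lower, and their median moved from 0.17 to 0.33. Notch1, a receptor that directs T cell fate, was the one at least 2-fold higher, at 900.6 against 401.4 (1.17), against 2.74% of named genes. Of 8 targets of Ebf1 and Tcf3, 5 were lower, against 48.8% of named genes, and 3 higher, with a median of -0.20 (-0.04 after median alignment). Cd79a is in this list too, and beside it the surrogate light chain gene Vpreb1 was at 167.7 against 31.7 (2.40). Rag1, the recombinase gene, was at 126.7 against 1.9, at least 5.07-fold higher with the lower value raised to the floor. Both Vpreb1 and Rag1 were under the filter on the non-transgenic array. Others of this list, picked out with their values known, did not share these large ratios. Vpreb3 was at 2568.9 against 2138.1 (0.26) and Igll1 at 205.4 against 234.4 (-0.19), with another Igll1 probe set at -1.14. Rag2 was under the floor on both arrays. Whether the levels of these genes followed those of the factors was not tested.

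**Figure D3:**
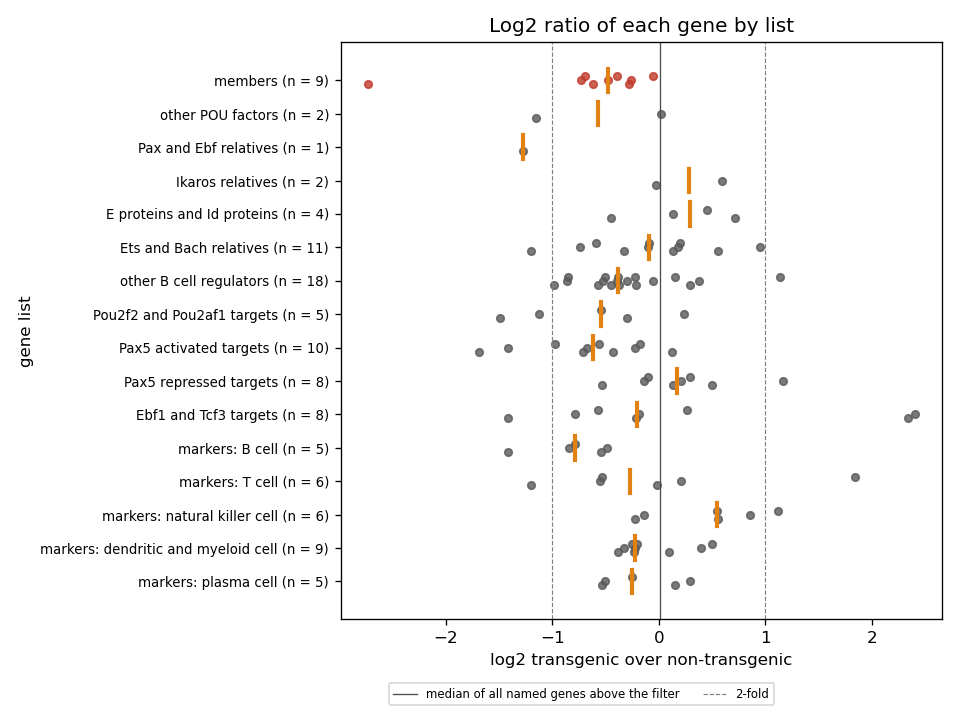
Log2 ratio of transgenic over non-transgenic for each gene above the filter, by list, with the list median as a vertical bar, the median of all named genes (0.01) as a solid line and 2-fold as dashed lines. As deposited, all 9 members and all 5 B cell markers lie below 0 (Pou2af1 turns above it under the other 3 scalings), and the lists of relatives lie on both sides.

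Markers of B cells and of other cells moved beside these results. All 5 B cell markers above the filter were lower on the transgenic array, against 48.8% of all named genes above the filter. They had a median of -0.79 (-0.45 after quantile normalization) and summed intensities of 112586 against 196919. All 5 were bright on both arrays, with mean intensities over 10000, where 69.0% of all named probe sets were lower with a median of -0.23. Ms4a1 (CD20), the brightest, was at 28070.7 against 41029.2 (-0.55). Of 6 natural killer cell markers, 4 were higher and 2 lower, where 48.8% of named genes above the filter were lower. After median alignment 1 of the 6 was lower, and their median moved from 0.55 to 0.71. Their summed intensities were 5105.0 against 3423.6. Klre1, a receptor of these cells picked out with its values known, was past 2-fold at 442.5 against 203.1 (1.12). Gzma, a cytotoxic protease, was at 2611.1 against 1445.7 (0.85, or 1.02 after median alignment).

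T cell markers had 6 of 8 above the filter, 4 lower and 2 higher as deposited. Of all named genes above the filter, 48.8% were lower. The T cell markers had a median of -0.27 (-0.11 after median alignment) and summed intensities of 1483.2 against 1571.0. Cd28 was the brightest at 409.8 against 355.6 (0.20). Picked out with their values known, Cd4 was at 145.7 against 40.5 (1.85) and Thy1, the marker the cells lacked, at 95.4 against 219.6 (-1.20), each under the filter on 1 array. Cd3e, a chain of the T cell receptor complex, and Cd8b1 were under the filter on both arrays. Of the 9 dendritic and myeloid markers, 6 were lower and 3 (Csf1r, Bst2 and Itgax) higher, with a median of -0.22 (-0.06 after median alignment). They summed to 19884.6 against 21008.6, with Lyz2, lysozyme, at 5595.9 against 6515.1 (-0.22). Itgax, the gene of CD11c and picked out with its values known, was at 757.6 against 707.7 (0.10). It was thus above the filter on both arrays, although the cells were described as lacking CD11c. Of the 5 plasma cell markers, 3 were lower and 2 (Xbp1 and Prdm1) higher, with a median of -0.25 (-0.08 after median alignment). They summed to 28742.7 against 36390.0, with the joining chain Jchain at 17224.1 against 24902.7 (-0.53). Of 2 erythroid markers, neither reached the filter, and the globin gene Hba-a1 was under the floor on both arrays. In these bulk samples fewer B cells and less RNA per cell cannot be told apart, and the part of cell makeup in the members' ratios was not tested.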

How the data were processed

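Per the labels' protocols, a Roche kit yielded total RNA, and biotin-labelled cDNA fragments of each group were hybridised to 1 array. The authors deposited 1 signal intensity per probe set and array, on a linear scale. The trimmed mean, leaving out the highest and lowest 2%, was 500.0 on both arrays, so the values were used as deposited. The software and background step are not given in the sources used here. No detection calls were used.

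The 64 control probe sets were left out. Of the other 45037, 34945 have 1 symbol, 932 several and 9160 none, and only the first were named. The 9 member symbols matched RefSeq names through Entrez identifiers. The log2 ratio was taken after raising intensities under the pooled 25th percentile (25) to it. The filter was the pooled median (98.8), and 2-fold is a log2 ratio of 1. The number of arrays limits the precision, and no p-value was computed.

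Genes named were the members, the brightest gene of each marker list, the 5 genes nearest to Pou2f2 and, of each other list, up to 4 genes past 2-fold or else the 2 brightest. The members and lists were chosen with earlier results of these data known. The steps were tested on simulated data. Alternatives were 3 other scalings, filters, a floor, a 1.5-fold limit, probe set rules and leaving out Pou2f2. Python 3.11.15, numpy 2.4.6, pandas 2.3.3, statsmodels 0.14.6 and matplotlib 3.10.9 were used.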

Additional observations from a re-analysis of the deposited data

How the results depend on the processing

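Aligning the array medians, quantile normalization and loess were tried in place of the deposited scale, and with them 21, 22 and 22 of the 23 member probe sets were lower. The shares of all named probe sets lower were 38.7%, 48.4% and 50.6% in the same order. Median alignment moved the median log2 ratio of all named probe sets from -0.03 to 0.15, and 23 of 23 members lay below that median, against 22 of 23 after quantile normalization or loess. The share of higher among all 2-fold calls was 31.2% as deposited, 53.0% aligned, 43.4% quantile normalized and 40.1% with loess. The log2 ratio of Pou2af1 changed sign under these scalings, to 0.105, 0.0522 and 0.046. The ratio of Pou2f2 lay between -2.78 and -2.04 and the median of the member genes between -0.62 and -0.31 over all alternatives run. The count of member probe sets at least 2-fold lower was 6 of 23 under each scaling. The background was 6.08% as deposited, 4.02% aligned, 4.84% quantile normalized and 5.1% with loess. The count was 3 of 18 with the filter at the pooled 75th percentile (background 3.02%) and 4 of 20 with both intensities above the filter (3.08%). Leaving out _s_at and _x_at probe sets it was 4 of 21 (6.32%), and without Pou2f2 (added after seeing the data) 3 of 20 (6.08%). At 1.5-fold it was 13 of 23, where the background was 16.0%. The count at least 2-fold higher was 0 under every alternative run, with backgrounds from 1.25% to 4.52%. At 1.5-fold higher it was also 0, where the background was 9.66%. The log2 ratio of Pou2f1 and its difference from Pou2f2 were not run, since no probe set is listed for it. No paired analysis was possible because each group is 1 array. Dim probe sets limit the sizes for Pax5, Tcf3 and Ikzf3, each with 1 probe set under the filter on the transgenic array.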
